A study of Mus musculus with 2 samples.

Results

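The transcription factor genes Ebf1, Ebf2, Ebf3, Ebf4, Foxc1 and Foxc2 were followed across the stromal, endothelial and B-lineage cells of mouse femurs. They were chosen by symbol, as the complete early B cell factor family and both Foxc genes, and are 6 of the 28006 features counted. Together they held 57647 UMIs in the kept cells of Mouse #1 and 100927 in those of Mouse #2. A UMI is a molecular tag by which each captured transcript is counted once.

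EBF proteins bind DNA as dimers through a zinc-coordinating domain. Ebf1 is best known as a factor that commits lymphoid progenitors to the B lineage, and Ebf1 and Ebf3 are also used by the CXCL12-producing reticular cells of the marrow. Ebf2 is known from adipose and immature osteoblast-lineage cells, and Ebf4 is the least studied of the family. Foxc1 and Foxc2 are forkhead factors needed for vascular and mesenchymal development, and Foxc1 is known to maintain the marrow niche for blood stem and progenitor cells.

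Femoral cells of 2 mice of the same genotype were sequenced singly, with a separate library for each mouse. The mice were 28 days old and had received tamoxifen at the age of 21 days. A GFP allele replaced one copy of Cxcl12, written Cxcl12(GFP/+). A BAC transgene, Cxcl12-iCreER, drove an inducible recombinase from Cxcl12 regulatory sequence, and R26R(tdTomato/+) recorded its action. Every cell thus carried a single intact Cxcl12 copy, and there was no untreated or wild-type group. The cell and design labels name a GFP+ sort, while an extraction label names tdTomato+ cells. All comparisons are between classes of cells within these animals. The libraries held 54940400 and 88790688 UMIs. They left 2750 and 4582 cells with median depths of 12966.5 and 12190 UMIs, and 7 cell barcodes occurred in both libraries. The labels call these bone marrow mesenchymal cells, yet blood cells with their defining markers were present. Myeloid-like cells alone were 12.5% and 6.70% of the kept cells. Clusters were named from marker genes, none of the 6 genes took part in the clustering, and each name carries the suffix "-like".

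All 6 genes lie on different chromosomes of GRCm38, the assembly also called mm10. Ebf1 spans chr11:44617317-45008091 on the plus strand with up to 16 exons in a transcript. Ebf2 spans chr14:67233292-67430918 (plus strand), Ebf3 chr7:137193673-137314445 (minus strand) and Ebf4 chr2:130295169-130370481 (plus strand). Foxc1, at chr13:31806633-31812476, and Foxc2, at chr8:121116171-121118895, are single-exon genes on the plus strand. Gm20388, another counted feature, overlaps Foxc2 on the same strand, so counts of Foxc2 are uncertain where reads could be given to either. Across the last 1000 bases of their GENCODE M21 transcripts, no member shared a stretch of 50 bases with another, which counted as 0 shared stretches in every pair.

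Ebf3 and Foxc1 had the most alike levels across cell classes of any pair of members, as described further on, and the 300 bases around their RefSeq starts (GRCm38.p6, 250 bases before the start and 50 after) are shown for this reason. Capitals mark the letters CCCNNGGG, the core of the EBF motif, which reads alike on both strands.
Ebf3, chr7:137314396-137314695, minus strand: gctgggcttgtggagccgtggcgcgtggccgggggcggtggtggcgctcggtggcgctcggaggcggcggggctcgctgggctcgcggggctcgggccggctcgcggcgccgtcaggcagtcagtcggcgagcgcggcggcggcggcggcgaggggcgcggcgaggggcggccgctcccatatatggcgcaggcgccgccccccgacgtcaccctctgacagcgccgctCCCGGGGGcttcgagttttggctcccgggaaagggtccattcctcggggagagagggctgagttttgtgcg
Foxc1, chr13:31806396-31806695, plus strand: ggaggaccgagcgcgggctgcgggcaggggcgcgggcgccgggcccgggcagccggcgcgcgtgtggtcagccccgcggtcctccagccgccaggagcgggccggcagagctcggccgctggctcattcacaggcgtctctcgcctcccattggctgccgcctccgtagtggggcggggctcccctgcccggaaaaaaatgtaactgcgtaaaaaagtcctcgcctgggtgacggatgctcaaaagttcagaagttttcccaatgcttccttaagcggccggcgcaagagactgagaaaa
The Ebf3 promoter held 1 match and the Foxc1 promoter 0, and 13.7% of 32544 promoters of this length held at least 1. The forkhead core TAAACA, searched on both strands, matched neither, and 13.4% of promoters held it. The sequences were rich in G and C, at 77.0% for Ebf3 and 67.3% for Foxc1 against a median of 53.0% over all promoters. RefSeq entries were matched for 4 members and 5 starts. The starts of Ebf1 (36.7% and 53.0% G and C) and of Ebf4 (74.3%) held 0 matches to either motif. These are matches of letters and not sites shown to be bound.

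Across the stroma, Ebf1, Ebf3 and Foxc1 had their highest levels, as shares of all UMIs, in reticular-like cells and lower ones in the bone lineage. Foxc2 was higher in preosteoblast-like and periosteal-like than in reticular-like cells, and low in osteoblast-like cells. Levels are given as CPM, the UMIs of a gene in every 1000000 UMIs of all cells of a class in a mouse. Ebf1 reached 1237 CPM in reticular-like cells of Mouse #1 and 1337 in Mouse #2. It reached 965 and 797 CPM in preosteoblast-like cells and 543 and 626 in periosteal-like cells. The pairs of values of the 3 classes did not overlap. Preosteoblast-like cells were deeper, at medians of 16381 and 17391 UMIs against 12527 and 11637 in reticular-like cells. Mean Ebf1 UMIs per cell were 17.4 and 15.4 in preosteoblast-like and 16.5 and 16.8 in reticular-like cells, so this order reversed in Mouse #1.

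Ebf3 had 395 and 397 CPM in reticular-like, 185 and 165 in preosteoblast-like and 95.5 and 92.9 in periosteal-like cells. Foxc1 had 390 and 408 CPM, 292 and 212 CPM, and 182 and 174 CPM in the same classes. Both mice thus gave the same order of CPM for both genes. Per cell, mean Ebf3 UMIs were 5.28 and 4.98 in reticular-like and 3.34 and 3.19 in preosteoblast-like cells. For Foxc1 these means were 5.21 and 5.12 against 5.26 and 4.09, so its order per cell reversed in Mouse #1. Foxc2, the sister gene of Foxc1, was at 15.6 and 16.0 CPM in reticular-like cells. It was higher in preosteoblast-like (34.1 and 28.8 CPM) and periosteal-like cells (33.3 and 36.5 CPM), and these pairs did not overlap the reticular-like pair. Ebf2 differed less, with 41.8 and 41.8 CPM in reticular-like, 34.1 and 25.4 in preosteoblast-like and 39.1 and 38.5 in periosteal-like cells. Ebf4 was near the limit of detection, with 6 and 23 UMIs in all reticular-like cells together. Its highest levels were 2.89 and 3.14 CPM, in periosteal-like cells, and it passed the filter on low counts in no comparison.

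**Figure D1:**
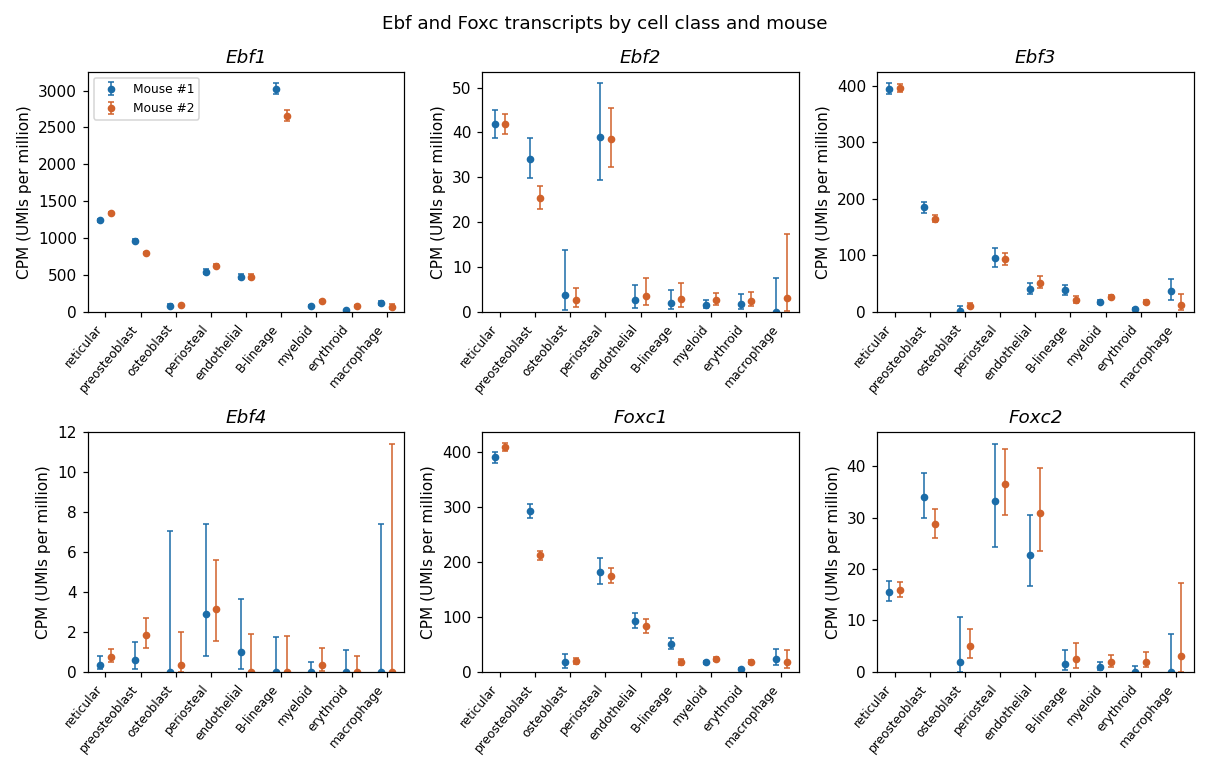
Levels of the 6 genes in CPM (linear axes from 0) in 9 cell classes; points are single mice and bars are exact Poisson intervals of 95% that cover counting error only. Ebf1 peaks in B-lineage-like cells at 3025 and 2661 CPM, Ebf3 and Foxc1 in reticular-like cells.

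Osteoblast-like cells, led by Bglap and Bglap2, held little of any member. There were 14 such cells in Mouse #1 and 62 in Mouse #2, too few in Mouse #1 for the test, so these are values only. Ebf1 stood at 80.4 and 84.4 CPM there, from 42 and 235 UMIs, 15.4-fold and 15.8-fold below reticular-like cells. Osteoblast-like cells were deeper, at medians of 32968.5 and 48426.5 UMIs against 12527 and 11637. The folds of CPM are thus larger than the folds of UMIs per cell. Foxc1 stood at 17.2 and 19.4 CPM, and Ebf3 at 1.91 and 10.1 CPM, from 1 and 28 UMIs. Foxc2 stood at 1.91 and 5.03 CPM, from 1 and 14 UMIs, below its reticular-like level in both mice. The preosteoblast-like level of Ebf1 was 12.0-fold and 9.45-fold above the osteoblast-like one, so the larger step in both mice lay between these 2 classes. Myeloid-like cells, which should lack Foxc1, had 17.2 and 23.6 CPM of it and 77.3 and 148 CPM of Ebf1, so the osteoblast-like values of both genes were at that background.

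Differences between classes were tested by the quasi-likelihood test of edgeR with Benjamini-Hochberg adjustment. It was fitted to 16 sums of counts, 1 for each of 8 classes in each mouse, so the spread of a gene was shared by all 8 classes. Between reticular-like and preosteoblast-like cells, 2 of 5 members tested passed an adjusted p of 0.05. Over all 13242 genes tested, 8.86% were called higher and 7.91% lower in reticular-like cells. Ebf3 was higher by 1.26 ± 0.33 on the log2 scale (SE; adjusted p = 0.0175 in edgeR), with 2.14-fold and 2.41-fold in the mice. Foxc2 was lower, with a log2 difference of -0.91 ± 0.27 (adjusted p = 0.0348 in edgeR). The others had log2 differences of 0.63 ± 0.43 for Ebf1, 0.59 ± 0.19 for Ebf2 and 0.75 ± 0.35 for Foxc1, with adjusted p of 0.381, 0.0544 and 0.177 in edgeR. With mouse as a block, Ebf2 passed at an adjusted p of 0.0413. When the 4 sums of these classes were fitted alone, all 5 passed in edgeR, with adjusted p from 0.0011 to 0.0304 and the same directions. At the finer clustering of resolution 1.0, Foxc2 had an adjusted p of 0.0583 in edgeR. The cause of these moves was not tested.

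Against periosteal-like cells, 3 of 5 members passed, where 7.31% of all genes were called higher and 7.93% lower in reticular-like cells. Ebf3 had the largest difference, 2.08 ± 0.35 on the log2 scale (adjusted p = 0.0012 in edgeR), about the same fold in each mouse at 4.14 and 4.27. Foxc1 was higher by 1.17 ± 0.36 (adjusted p = 0.0432 in edgeR), a call lost under DESeq2 (adjusted p = 0.154), under RLE size factors (0.0966) and under stricter cell limits (0.0527). Foxc2 was lower, at -1.15 ± 0.30 (adjusted p = 0.0183 in edgeR). Ebf1 differed by 1.15 ± 0.44 (adjusted p = 0.0990) and Ebf2 by 0.12 ± 0.21 (adjusted p = 0.762), both short of the threshold in edgeR. Every comparison with reticular-like cells uses the same reticular-like sums, so these results share their data.

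**Figure D2:**
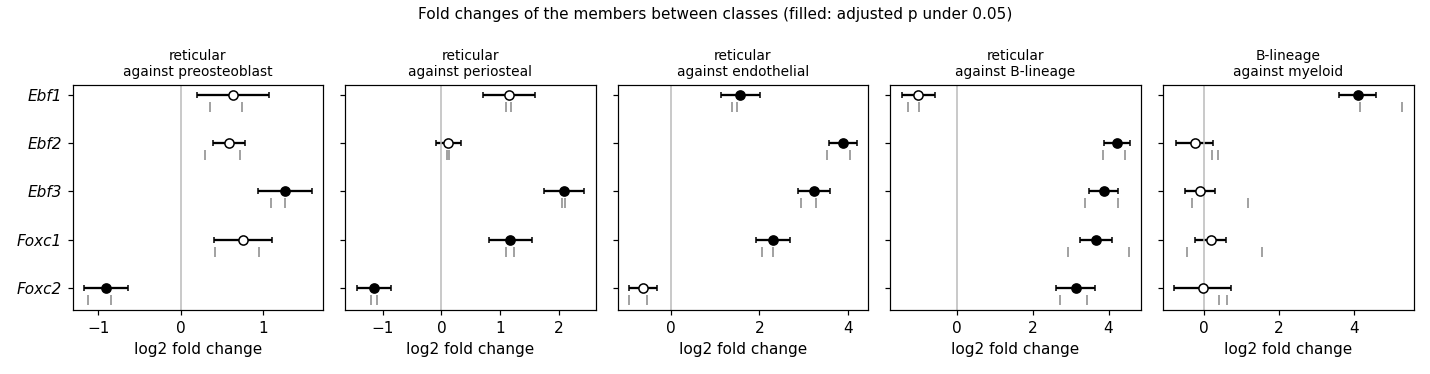
Log2 fold changes of 5 members between cell classes from the edgeR fit (circles, bars are SE; filled where the adjusted p was under 0.05), with the log2 ratio of CPM in each mouse as grey ticks. Ebf3 lies above 0 and Foxc2 below 0 in the first and second panels, and Ebf1 alone is filled in the last.

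The cells named reticular-like were not uniform for Foxc1. They formed 4 clusters, each known here by its leading genes. Foxc1 was lowest in the cluster led by Ccl2, Tnfsf11 and the tdTomato reporter, at 230 and 223 CPM. It was highest in the cluster led by Fam13a, Kcne4 and Hspb1, at 661 and 663 CPM. The ratio of these levels was 2.87 and 2.97 in the mice. The cluster led by Bmp4, Adipoq and Cxcl12 was close to the highest, at 580 and 581 CPM. The cluster led by the immediate early genes Fos and Egr1 lay between, at 326 and 404 CPM. It held 363 cells of Mouse #1 and 109 of Mouse #2.

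Ebf1 and Ebf3 varied less among these clusters. Ebf1 ranged from 1092 to 1417 CPM in Mouse #1 and from 1179 to 1570 in Mouse #2, lowest in the Ccl2-led and highest in the Bmp4-led cluster in both. Ebf3 had the same lowest and highest cluster, with ratios of 1.42 and 1.28. Foxc2 was lowest in the Bmp4-led cluster, at 8.51 and 8.12 CPM, where Foxc1 was high. It was highest in the Fam13a-led cluster of Mouse #1, at 20.7 CPM, as Foxc1 was, and in the Ccl2-led cluster of Mouse #2, at 18.4 CPM. Its ratio of highest to lowest was 2.44 and 2.26. The clusters were set side by side after their values were seen, so no test is given. Heat shock genes (Hspb1, Hspa1a and Hspa1b) were among the leading genes of the cluster highest in Foxc1, and median depths there were 10289 and 10553 UMIs against 13548.5 and 12329 in the Ccl2-led cluster. The part of stress genes or depth in the Foxc1 pattern was not tested. Without the Fos- and Egr1-led cluster, which differed in size between the mice, 2 members were called against preosteoblast-like and 3 against periosteal-like cells, as with it.

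**Figure D3:**
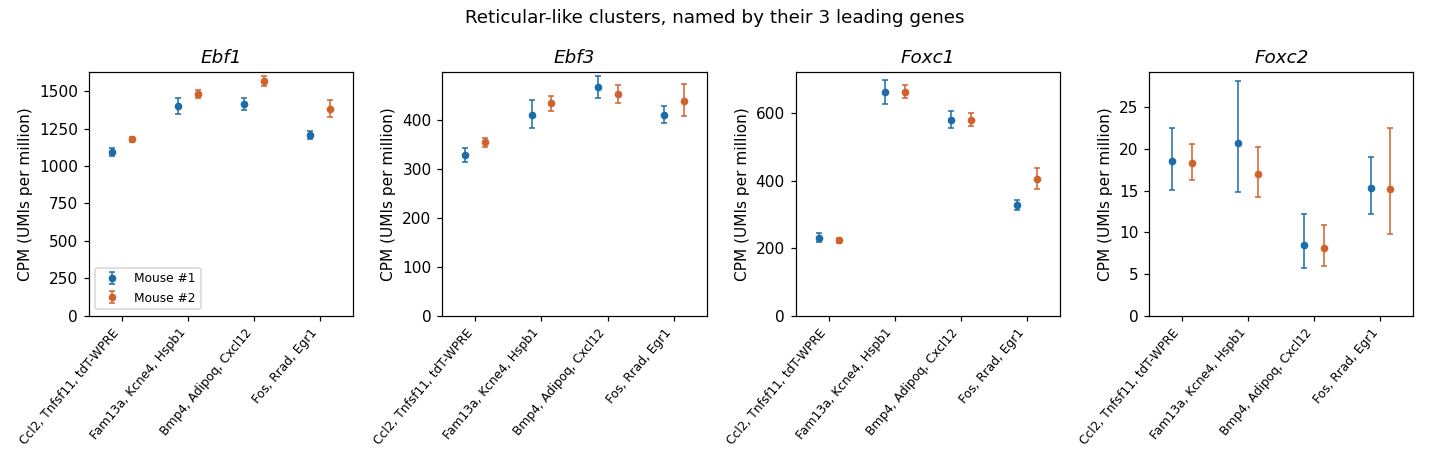
Ebf1, Ebf3, Foxc1 and Foxc2 in CPM (linear axes from 0) in the 4 reticular-like clusters, named by leading genes; points are single mice, bars exact Poisson intervals of 95%. Foxc1 runs from 223 to 663 CPM in Mouse #2, a wider span than that of Ebf1 or Ebf3.

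Whether cells marked by Cxcl12-iCreER differ in these factors was asked by splitting reticular-like cells on tdTomato. Marked cells were those above the 99th percentile of blood cells of the same mouse, 502 of Mouse #1 and 979 of Mouse #2. The tdTomato reporter was also a leading gene of the Ccl2-led cluster, the reticular-like cluster lowest in Ebf1, Ebf3 and Foxc1. The part of this cluster in the split was not tested. In edgeR, 0 of 5 members tested passed, and neither did any of 12176 genes (0% higher and 0% lower), of which 424 had an unadjusted p under 0.05. DESeq2 also called 0 members. The tdTomato feature, on which the cells were split, was thus not called in edgeR either. Deviations of the same mouse correlated at 0.521 between these sums, and mouse was not in the main fit. The test therefore could not show that marked and unmarked cells were alike in these genes. Ebf1 was at 1156 and 1238 CPM in marked and 1294 and 1405 CPM in unmarked cells, a log2 difference of -0.14 ± 0.08. Foxc1 was at 382 and 373 CPM against 395 and 431 CPM (-0.10 ± 0.08). Ebf2 leaned the other way, at 44.3 and 45.1 CPM against 40.1 and 39.6 (0.20 ± 0.09). All 5 members tested gave the same sign in both mice, and each had an adjusted p of 1.00 in edgeR.

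Endothelial-like cells, defined by Cdh5, Pecam1 and related genes, carried Ebf1 with little Ebf2. There were 152 and 138 of them. Ebf1 was at 476 and 475 CPM, 2.60-fold and 2.82-fold below reticular-like cells but 6.15-fold and 3.22-fold above myeloid-like cells. Foxc2 was at 22.8 and 30.8 CPM, which was above its reticular-like level in both mice. In edgeR, 4 of 5 members were higher in reticular-like than in endothelial-like cells, where 21.7% of all genes were called higher and 20.1% lower. Log2 differences were 3.89 ± 0.32 for Ebf2, 3.24 ± 0.37 for Ebf3, 2.31 ± 0.38 for Foxc1 and 1.57 ± 0.44 for Ebf1. Their adjusted p were 6.3e-07, 1.17e-05, 0.000248 and 0.0115 in edgeR. Foxc2 differed by -0.63 ± 0.31 (adjusted p = 0.120). Ebf2, at 2.53 and 3.60 CPM, was close to its level in myeloid-like cells (1.46 and 2.50 CPM).

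Within the endothelium, Ebf1 and Foxc1 divided along vessel type. Arterial-like cells, a cluster with Gja4 and Sema3g among its leading genes (124 and 110 cells), had 583 and 543 CPM of Ebf1. Sinusoidal-like cells, led by Tfpi, Fabp4 and Stab2 (28 and 28 cells), had 126 and 233 CPM. Foxc1 was the reverse, at 31.0 and 52.1 CPM in arterial-like and 297 and 191 CPM in sinusoidal-like cells. The groups did not overlap for either gene, and the Foxc1 level of sinusoidal-like cells was 9.58-fold and 3.67-fold the arterial-like one. In edgeR on these 4 sums, 2 of 4 members tested passed, where 9.63% of all genes were called higher and 11.8% lower in arterial-like cells. Ebf1 was higher by 1.54 ± 0.28 on the log2 scale (adjusted p = 0.0077 in edgeR). Foxc1 was lower, at -2.65 ± 0.31 (adjusted p = 0.0010 in edgeR).

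The difference in Foxc2 had the same sign in both mice but not the same size, and that in Ebf3 changed sign. Foxc2 was at 21.8 and 12.5 CPM in arterial-like and 26.0 and 95.6 CPM in sinusoidal-like cells, so nearly all of its difference came from Mouse #2. Its log2 difference was -1.91 ± 0.58 (adjusted p = 0.0526 in edgeR, and 4.95e-05 with mouse as a block). It also passed under DESeq2 and 2 other settings. Ebf3 was lower in sinusoidal-like cells of Mouse #1 (32.5 against 42.9 CPM) and higher in those of Mouse #2 (93.3 against 39.5 CPM). Sinusoidal-like sums also held more of the 8 reticular markers, 1850 and 3435 CPM against 468 and 602 CPM in arterial-like sums. Arterial-like sums in turn held 8575 and 5832 CPM of the 8 myeloid markers, against 217 and 128 CPM. The part of these in the results was not tested. The level of Foxc1 in Mouse #1 was 2.36 times that of Ebf1 in sinusoidal-like cells but 0.315 times in reticular-like cells, and in Mouse #2 these were 0.820 and 0.305.

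**Figure D4:**
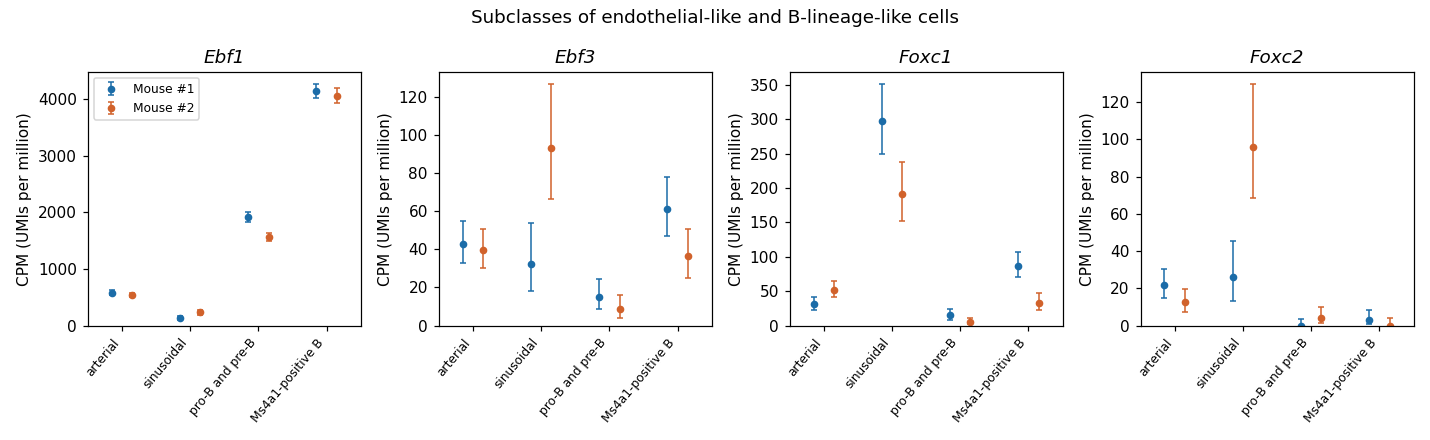
Ebf1, Ebf3, Foxc1 and Foxc2 in CPM (linear axes from 0) in arterial-like and sinusoidal-like endothelial cells and in early and Ms4a1-positive B-like cells; points are single mice, bars exact Poisson intervals of 95%. Foxc1 is high in sinusoidal-like cells (297 and 191 CPM), and Ebf1 in Ms4a1-positive B-like cells (4150 and 4059 CPM).

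B-lineage-like cells had the most Ebf1 of any named class and little of the other members. Ebf1 was at 3025 and 2661 CPM in 234 and 237 cells, 2.44-fold and 1.99-fold above reticular-like cells. It was detected in 234 of 234 cells and 236 of 237 cells. Against reticular-like cells its log2 difference was -1.02 ± 0.44 (reticular minus B-lineage), with an adjusted p of 0.0551 in edgeR, 0.0377 with mouse as a block and from 0.0004 to 0.340 over the alternatives. The other 4 members tested were higher in reticular-like cells, where 34.1% of all genes were called higher and 28.9% lower. Log2 differences ran from 3.14 ± 0.51 for Foxc2 to 4.22 ± 0.33 for Ebf2, with adjusted p from 2.00e-07 to 0.000127 in edgeR. Ebf4 had 0 UMIs in B-lineage-like cells of either mouse.

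Against myeloid-like cells, 1 of 5 members passed, Ebf1, with a log2 difference of 4.10 ± 0.49 (adjusted p = 2.39e-05 in edgeR). Of all genes, 12.6% were called higher and 18.6% lower in B-lineage-like cells. The other members did not pass, with adjusted p from 0.777 to 0.989. Ebf3 was at 37.9 and 20.8 CPM and Foxc1 at 50.9 and 17.4 CPM in B-lineage-like cells, on both sides of the myeloid-like values. Foxc1 passed as lower in B-lineage-like cells under other settings, at -1.22 with the highest Scrublet scores removed (adjusted p = 0.0487) and -1.20 at resolution 1.0 (adjusted p = 0.0165), both in edgeR.

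These UMIs sat in few cells. Foxc1 was seen in 17 and 21 B-lineage-like cells, and 5 cells held 81 of its 106 UMIs in Mouse #1 and 20 of 36 in Mouse #2. B-lineage-like cells with a UMI of Cxcl12 or eGFP, which mark the stroma, were 104 of 234 and 160 of 237 cells. They held 2989 of 6300 and 4026 of 5503 Ebf1 UMIs, and 104 of 106 and 30 of 36 Foxc1 UMIs. For Ebf3 the counts were 77 of 79 and 41 of 43. In B-lineage-like cells without such a UMI, Ebf3 stood at 1.90 and 4.82 CPM, Foxc1 at 1.90 and 14.5 CPM and Ebf1 at 3145 and 3559 CPM. For Foxc1 in Mouse #2 the level with such a UMI, 18.1 CPM, was close to the level without. This split was chosen after the values were seen, and the depths of its sides were not compared. Ebf1 was thus no lower in the cells without stromal UMIs.

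Pro-B and pre-B-like cells, the early B-like cells here, differed in Ebf1 from Ms4a1-positive B-like cells, though not under every setting. Pro-B and pre-B-like cells, with Vpreb1, Igll1 and Dntt (47 and 48 cells), had 1922 and 1562 CPM. Ms4a1-positive B-like cells (187 and 189) had 4150 and 4059 CPM, a ratio of 2.16 and 2.60. Part of the pro-B and pre-B markers was raised in these cells as well. In edgeR, 3 of 3 members tested were lower in the early cells, where 18.0% of all genes were called higher and 15.7% lower. Ebf1 differed by -1.11 ± 0.17 (adjusted p = 0.0009), Ebf3 by -1.91 ± 0.38 (adjusted p = 0.0044) and Foxc1 by -2.46 ± 0.54 (adjusted p = 0.0072). With the stricter cell limits or the finer clustering, 0 of these passed, and the Ebf1 difference was -0.70 and -0.42. The Ms4a1-positive name then held 50 and 34 cells under the limits, and 52 and 74 at the finer clustering. There, a cluster of 127 and 114 cells with Rag1 and Vpreb3 among its leading genes stayed unnamed. Under the stricter limits Ebf3 and Foxc1 turned sign, to 0.22 and 0.92. The Ms4a1-positive cells were also shallower, with median depths of 4575 and 4081 UMIs against 16235 and 13087. Their Ebf1 UMIs were 4279 and 3693 in all, against 2021 and 1810 in the fewer early cells. Per cell, Ebf1 UMIs were thus higher in the early cells, the reverse of the order in CPM. The part of depth in the Ebf1 result was not tested. Ms4a1-positive cells held 2432 and 1075 CPM of the reticular markers, against 381 and 340 CPM in early cells. The part of this in the Ebf3 and Foxc1 results was not tested.

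Free RNA gave the background for low values. Barcodes of at most 100 UMIs held 604 and 689 CPM of Ebf1, 290 and 292 CPM of Ebf3 and 234 and 264 CPM of Foxc1. After thinning each cell to 5000 UMIs, Ebf1 was detected in 13.4% and 18.6% of myeloid-like cells, against 98.4% and 99.1% of reticular-like and 75.2% and 75.8% of endothelial-like cells. Without thinning these were 18.6% and 26.1%, 98.7% and 99.3%, and 87.5% and 85.5%. Median depths of reticular-like and myeloid-like cells were 12527 and 11637, and 14729 and 11862 UMIs. B-lineage-like cells had 5044 and 4376, so thinning to 5000 left out many of them, and their thinned shares describe the deeper ones. Ebf3 was found in 4.26% and 11% of thinned myeloid-like cells, and in 7.50% and 5.56% of B-lineage-like cells, which was above the myeloid-like share in Mouse #1 and below it in Mouse #2. Foxc1 shares in B-lineage-like cells, 6.67% and 7.78%, were slightly above the myeloid-like 5.57% and 6.44%, but rested on few cells. Before thinning, 17 and 21 B-lineage-like cells held a Foxc1 UMI. In free RNA, Ebf3 was 0.480 and 0.424 times Ebf1, but in B-lineage-like cells only 0.0125 and 0.0078 times.

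The make-up of the Ebf family differed between some classes and overlapped between others. UMIs were counted at the 3′ end, once per transcript, so no length scaling was applied. Ebf3 made up 23.6% and 22.3% of Ebf UMIs in reticular-like cells, 15.6% and 16.7% in preosteoblast-like cells and 14.0% and 12.2% in periosteal-like cells. Myeloid-like cells, at 17.5% and 14.7%, overlapped the preosteoblast-like ones. Macrophage-like cells had 24.3% and 15.4%, and osteoblast-like cells 2.22% and 10.3%, from few UMIs. In arterial-like cells it was 6.83% and 6.76%, and in B-lineage-like cells 1.24% and 0.774%. Sinusoidal-like cells had 19.5% (95% Wilson interval 12.2 to 29.7%) and 27.8% (21.1 to 35.6%), from 77 and 144 Ebf UMIs. Erythroid-like cells had 18.7% and 17.1%, so shares near those of the stroma were not particular to sinusoidal-like cells. The part of stromal RNA in these shares was not tested. Ebf1 was the main member in every class with Ebf UMIs in both mice. Plasmacytoid dendritic-like cells, with 0 and 6 Ebf UMIs, gave no make-up in Mouse #1. The shares of Ebf2 were largest in periosteal-like cells among the stromal classes tested, at 5.74% and 5.06%.

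**Figure D5:**
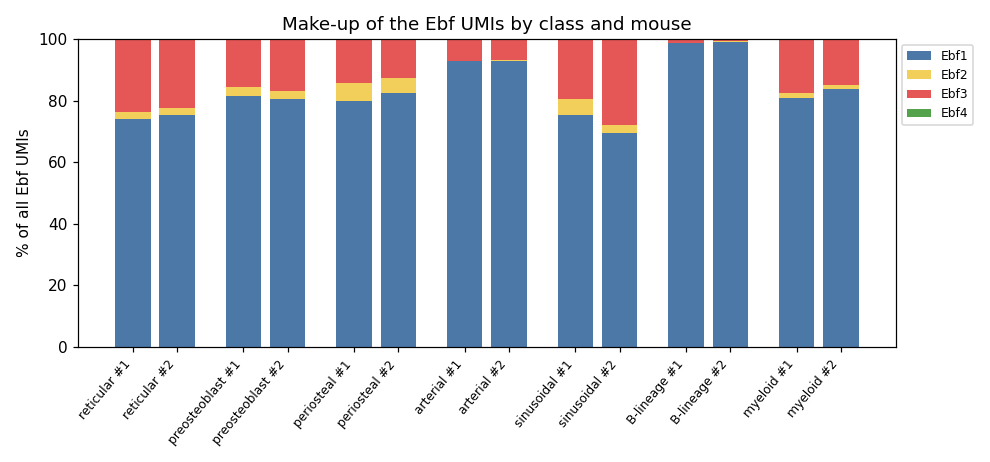
Share of each Ebf gene in all Ebf UMIs (stacked bars, percent) per class and mouse. Ebf3 takes 23.6% and 22.3% in reticular-like cells and 1.24% and 0.774% in B-lineage-like cells.

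Ebf1, Ebf3 and Foxc1 were largely found in the same reticular-like cells. At 5000 UMIs per cell, 63.0% and 60.9% of these cells had a UMI of all 3 genes, and 0.174% and 0.176% had none. The product of the separate shares was 60.3% and 59.1%, so the joint share was little more than the separate shares give. In preosteoblast-like cells the joint share was 38.9% and 28.8%, against products of 33.4% and 23.2%. In periosteal-like cells it was 21.1% and 17.6%. These are descriptions, and cells of a mouse are not replicates.

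Across the 16 sums of class and mouse, the log2 levels of Foxc1 and Ebf3 had a Pearson correlation of 0.97, the highest of any pair of members. Foxc1 and Foxc2 gave 0.86, and Ebf1 gave 0.69 with Ebf3. The genes most like Ebf3 among 11181 were Snai2, Arrdc4, Cxcl12, Tln2 and Ahcyl1, with correlations of 0.99 to 0.98. Cxcl12, the chemokine by whose reporter the cells were sorted, stood at 9022 and 9084 CPM in reticular-like cells and 3317 and 2099 in preosteoblast-like cells. For Foxc1 they were Btd, Syde1, Igfbp4, Ift43 and Tead1 (0.99 to 0.98), and for Foxc2 Kank2, Dbn1, Lama4, Chst2 and Selm (0.98 to 0.97). For Ebf1 they were Zfp68, Gm26735, Sox4, Dhx30 and Gm6483 (0.97 to 0.95), and for Ebf2 Srpx, Tbx18, Nkd1, Fxyd1 and Cpxm1 (0.96). Ebf4, with few UMIs, was nearest to Tenm3, Camk4, Dcn, Prrx2 and Flnc (0.95 to 0.92). Over 34 sums of cluster and mouse the nearest genes were partly others. They were Zfp618, Arrdc4, Ghr, Dlg5 and Tln2 for Ebf3 (0.97 to 0.96), and Arrdc4, Tgfbr3, Palld, Mylk and Kazn for Foxc1 (0.96). The points share libraries and classes, so these values describe the classes sampled.

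Genes that work beside these factors were read from lists. Of 10 partners and cofactors of EBF proteins, 1 was higher and 1 lower in reticular-like cells when set against preosteoblast-like ones, with a list median of -0.24 against 0.00 for all genes (log2). These counts are near the shares of all genes called, 8.86% and 7.91%. Runx1, which cooperates with Ebf1 in B cells, was higher by 1.04 ± 0.31, and Zfp521, a zinc finger protein that antagonises Ebf1, was lower at -0.88 ± 0.27 (adjusted p = 0.0373 and 0.0397 in edgeR). Of 7 niche factors, 6 were higher and 0 lower, with a median of 1.87. The stem cell factor gene Kitl led them at 2.16 ± 0.40, with Bmp4, Lepr and Angpt1 next. Of 10 stromal lineage factors tested, 4 were higher and 1 lower, with a median of 0.44. The osteoblast factor Sp7 was lower at -3.55 ± 0.20, and the adipogenic factors Pparg and Cebpa were higher by 1.65 ± 0.24 and 1.17 ± 0.27, after Twist2 at 2.09 ± 0.36.

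Of 41 other forkhead genes listed, 15 were tested in this comparison, and 2 were higher and 0 lower, with a median of 0.01. Foxp2 was higher by 2.53 ± 0.24, at 34.3 and 31.0 CPM against 5.63 and 6.13 CPM, and Foxp1 by 0.67 ± 0.20. Between reticular-like and endothelial-like cells, 4 were higher and 2 lower, where 21.7% and 20.1% of all genes were, and Foxp2 and Foxs1 differed most, by 4.78 ± 0.43 and 4.64 ± 0.55. Zfp521 was again lower in reticular-like cells, at 7.05 and 6.37 CPM against 24.8 and 32.4 CPM in endothelial-like cells. Between arterial-like and sinusoidal-like cells, Zfp521 and Runx1 were both lower in the arterial-like ones, at -2.65 ± 0.35 and -2.01 ± 0.30 (adjusted p = 0.0018 and 0.0032 in edgeR).

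The 10 listed genes of the B-lineage program all followed Ebf1 in its comparison with myeloid-like cells, 10 higher and 0 lower, with a median of 5.25 against -0.05 for all genes. Pax5, a target and partner of Ebf1, was at 278 and 255 CPM against 3.59 and 4.16 CPM, and Pou2af1 at 322 and 268 CPM against 1.60 and 4.16 CPM. Of the 10 EBF partners, 3 were higher and 1 lower, where 12.6% and 18.6% of all genes were. The E protein genes Tcf3 and Tcf12 were higher by 3.10 ± 0.17 and 1.91 ± 0.17.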

How the data were processed

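Cxcl12-GFP+ femoral cells of 2 mice (1 group, replicates #1 and #2, paired by animal) were profiled on the 10x Chromium platform with version 3 chemistry. The values used are raw UMI counts deposited by the authors, who made them, per the file headers, with Cell Ranger 3.0.0 against mm10 with added reporter sequences. The annotation release is not given in the sources used here. Barcodes were unfiltered. Of the features, 27998 carried Ensembl identifiers and 27645 of these were in GENCODE M21.

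Barcodes were kept as cells when 1000 or more genes were detected and no more than 15% of UMIs were mitochondrial. After scaling to 10000 UMIs and log transformation, 2000 variable genes, without the members and listed genes, gave 30 components. Graphs of 15 neighbors were clustered by Leiden (leidenalg 0.10.2) at resolution 0.5 into 20 clusters. A cluster took a name with at least 3 of a class's markers raised 1.5-fold and present in 10% of cells. A cluster stayed unnamed if its top 10 genes held as many markers of another class, or if it was shallow with none of its own. Names were rebuilt here, so differences from the study may come from them. The study names no doublet removal and doublets were kept. Scrublet in scanpy 1.11.5 marked 6 and 3 cells, too few to have worked, so the highest 60 and 168 scores were removed as an alternative.

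Counts were summed per mouse and class with at least 20 cells in each mouse and tested in edgeR 4.0.16 under R 4.3.3 (quasi-likelihood, TMM, filterByExpr, Benjamini-Hochberg over all genes), and by DESeq2 1.42.0 as an alternative. With 1 library per mouse, p-values rest on differences between the 2 animals. In the main fit the spread of a gene was pooled over all 8 classes, without a term for mouse. It is thus not the spread of the compared classes alone. Deviations of the same mouse correlated across genes at 0.0805 to 0.521. The last 2 comparisons and that of tdTomato were fitted on their own 4 sums. The test was also run on simulated sums with the same spread for all genes and no effect of mouse. That run cannot show how the test behaves on sums that share a mouse. Poisson and Wilson intervals cover counting error only. Shares used cells thinned to 5000 UMIs, leaving out 350 and 545 shallower cells. No columns were left unused.

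The 6 members and the lists were chosen with earlier results of these data known. Named genes were the members, up to 4 called genes of largest fold per list, and the 5 genes most correlated with each member over sums of log2(CPM + 1), among genes with 10 CPM in at least 2 sums.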

Additional observations from a re-analysis of the deposited data

Results flagged for a closer look

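Cells that no comparison used also held the factors, above the limit that a count of 0 allows (3 counts, at most 5.36 CPM). A shallow unnamed cluster, led by Gm26917 with 122 and 229 cells and median depths of 3905 and 3501 UMIs, had a mean of 2109 ± 142 CPM of Ebf1 (SD, n = 2). It had 711 ± 7.21 CPM of Ebf3 and 389 ± 38.6 CPM of Foxc1. Its Ebf1 and Ebf3 were above those of reticular-like cells in both mice. Median mitochondrial shares were 8.89% and 9.15%, against at most 3.66% in the reticular-like clusters.

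An unnamed cluster led by Acta2 and Spp1, with 65 and 78 cells, had 575 ± 30 CPM of Ebf1, 97.5 ± 11.2 CPM of Ebf3 and 178 ± 28.8 CPM of Foxc1.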

How the results depend on the processing

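With mouse as a replicate block the counts of members called were 3, 3, 4, 5, 1, 0, 3 and 3, in the order of the report's comparisons from preosteoblast-like to early B cells, and no count moved by more than 1.5 times. Counts moved further under these settings. Against preosteoblast-like cells 1 was called at Leiden resolution 1.0 and 5 when only the compared classes were fitted. Against periosteal-like cells 5 were called with no filter on low counts and 5 when only the compared classes were fitted, Ebf4 being among those tested there. Between B-lineage-like and myeloid-like cells 2 were called with the highest Scrublet scores removed, 3 at resolution 1.0 and 3 without the B-lineage-like cells that had Cxcl12 or eGFP UMIs, an alternative chosen after seeing the data. Between early and Ms4a1-positive B-like cells 0 were called under stricter limits (2000 genes, 10% mitochondrial UMIs), 1 with the Scrublet scores removed, where Ebf1 alone passed the filter, and 0 at resolution 1.0. The cause was not tested. Directions turned in several comparisons, for members with and without a call. Ebf2 against periosteal-like cells was -0.0255 under DESeq2 and -0.0255 under RLE size factors. Between B-lineage-like and myeloid-like cells, Foxc2 was 0.0014 under DESeq2, 0.0011 under RLE, 0.0057 with no filter and 0.75 under stricter limits, where Ebf2 was 0.28 and Ebf3 0.24. Foxc1 there was -1.22 with the Scrublet scores removed, -1.20 at resolution 1.0 and -2.36 without the cells with Cxcl12 or eGFP UMIs. Ebf3 between arterial-like and sinusoidal-like cells was 0.0042 with the Scrublet scores removed. Between early and Ms4a1-positive B-like cells, under stricter limits, Ebf3 was 0.22 and Foxc1 0.92, both called in the other direction in the report. Leaving out either mouse left the ratio of a single mouse with no test, and the signs of the mice then differed for Ebf3 and Foxc1 between B-lineage-like and myeloid-like cells and for Ebf3 between arterial-like and sinusoidal-like cells. Over all settings, 321 log2 differences were labelled the same, 22 gained a call, 8 lost a call, 25 moved and 14 turned sign. With a mouse left out, the same meant within the SD of the mice, with no test. Some of the 321 therefore have no side of the threshold, and some differ in sign.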

Other observations

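The clusters of blood cells other than the B lineage held Ebf1 unevenly between the mice. Erythroid-like cells had 16.5 CPM in Mouse #1 and 80.4 in Mouse #2, and the myeloid-like cluster led by F13a1 and Ccr2 had 82.8 and 288 CPM. Ebf3 was 0.255 and 0.213 times Ebf1 in erythroid-like cells, and 0.217 and 0.176 times in myeloid-like cells, against 0.319 and 0.297 times in reticular-like cells.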
